A study of Gallus gallus with 106 samples.

Results

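The comparison described here covers 48 h of differentiation in normoxia in primary satellite cells from the Pectoralis major, the breast muscle, of wild-type (WT) broiler chickens. Its members are 11 of the 53 biological libraries of the study, taken by their labels: 6 libraries of cells kept for 48 h in differentiation medium at 20% O2, and 5 libraries of cells harvested at 0 h, just before the medium was changed. The remaining libraries were cells at 12, 24 and 36 h in normoxia and cells held at 1% O2 (hypoxia) for 12, 24, 36 and 48 h, with 6 in each group. The assay was targeted RNA-seq, which amplifies chosen transcripts from cDNA with primers and counts the reads of each. Each library was measured in 2 technical replicates, which were summed, so the 11 libraries stand for 22 of the 106 columns of the deposited table. Per the labels' protocols, cells at 0 h had been grown in Ham's F10 medium with fetal bovine serum, horse serum, chicken embryo extract and basic fibroblast growth factor, and the differentiation medium was DMEM/F12 with horse serum and chicken embryo extract. The change of medium and the 48 h in it therefore separate the groups together and cannot be told apart. Whether each library is a bird of its own is not in the labels, so the p-values speak only of the spread among these libraries, which may be technical.

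Satellite cells are the stem cells of skeletal muscle. When growth factors are withdrawn, they leave the cell cycle, and the myogenic regulatory factors, a family of DNA-binding proteins that includes MYF5, MYOD1, MYOG and MYF6, drive them to become myocytes that fuse into multinucleated myotubes. PAX3 and PAX7 mark the undifferentiated cells, Notch and Wnt signals help to set when they differentiate, myostatin restrains muscle growth, and the insulin-like growth factors promote it. Differentiated cells build sarcomeres from myosin heavy chains, actins and Z-disc proteins.

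Total counts ran from 201593 to 1258867 per library at 48 h (median 787598) and from 311436 to 1268843 at 0 h (median 1064169). Of 569 genes in the panel, 453 had enough counts to be tested and 116 did not. Levels are given as CPM, counts scaled to library size, as mean ± SD over libraries. CPM of different genes depend on how well each primer pair amplifies and are not compared with each other. Changes are log2 values, 48 h minus 0 h, with their standard error (SE), and a gene is said to rise or fall only where the Benjamini-Hochberg adjusted p of edgeR's quasi-likelihood test was under 0.05 over all 453 genes. A set of 20 genes was built from 6 seed genes: MC5R, SSTR2, HRH2, THRSP, FBP2 and IRS1. Genes, the seeds and others such as SOST and PRDM16, were kept where their deviations from group means correlated at 0.7 or more with the mean of the seeds. Moving together within groups was thus the rule of choice for the 20 genes. No library had a mean log2 CPM of these genes inside a gap from 6.61 to 7.59, and 5 of the 6 libraries at 48 h lay above it, all but replicate 6, against 1 of the 5 at 0 h, replicate 1. Of these 20 genes 10 have 1 or 2 exons in the deposited table, against 26 of the 453 tested. The seeds MC5R, SSTR2 and IRS1 have 1 exon and HRH2 and THRSP have 2, so part of this contrast came with the seeds. Per the labels' protocols the primers span exon boundaries, but genes with 1 exon in the deposited table, such as MC5R, have no boundary to span. What raised the 20 genes together was not tested. Of the 20 genes 4 rose (MC5R, SLC25A34, FBP2 and THRSP) and 0 fell, beside 15.5% higher and 25.2% lower over all tested genes. The median change of the 20 genes was 1.68, against 0.01 for all tested genes. With the shared level as a covariate 170 of the 184 genes called over 48 h were still called and all 184 kept their direction. The 4 that rose among the 20 are part of that level, so the covariate fit is no independent check of them. Leaving the high libraries out keeps 4 libraries at 0 h and, at 48 h, replicate 6 alone, the shallowest at that time, which is assumed to vary like the libraries of other groups. In that fit 181 of the 184 kept their direction, with a median absolute log2 change of 0.94, against 1.02 for the same genes with all libraries. Its libraries are part of those in the main fit, and in 141 called genes the libraries of the 2 times do not overlap. Directions were thus largely fixed beforehand. Directions kept without the high libraries, here and below, are therefore not independent support. An arm of 1 library has little power, so a call lost there is not read as resting on the high libraries.

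Of the 453 genes 184 (40.6%) changed, 70 higher (15.5%) and 114 lower (25.2%) at 48 h. The median change of all tested genes was 0.01, and 211 genes had an unadjusted p under 0.05. Among the called genes 41 rose and 53 fell 2-fold or more, and 18 rose and 17 fell 4-fold or more. In 143 genes (31.6%) every library at 48 h lay on one side of every library at 0 h, 53 above and 90 below. Since the RNA is from a whole culture, fewer cells of a kind and less RNA per cell cannot be told apart.

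The 12 largest rises were in SPON2, PTGDS, FABP1, DPT, EXFABP, FGF18, PPARGC1A, MYLK, SPARC, MC5R, ITGA7 and LDB3, and the 12 largest falls in WNT4, MMP9, VWF, MSTN, EDN1, HEY1, FFAR4, SOX13, 2 genes with no symbol, EDNRB and WNT10A. The genes with no symbol were ENSGALG00000030587 on chromosome 3 (log2 -2.52, SE 0.37) and ENSGALG00000025996 on chromosome 6 (log2 -2.43, SE 0.24). The plot of these genes by library shows how far the groups stood apart.

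**Figure D1:**
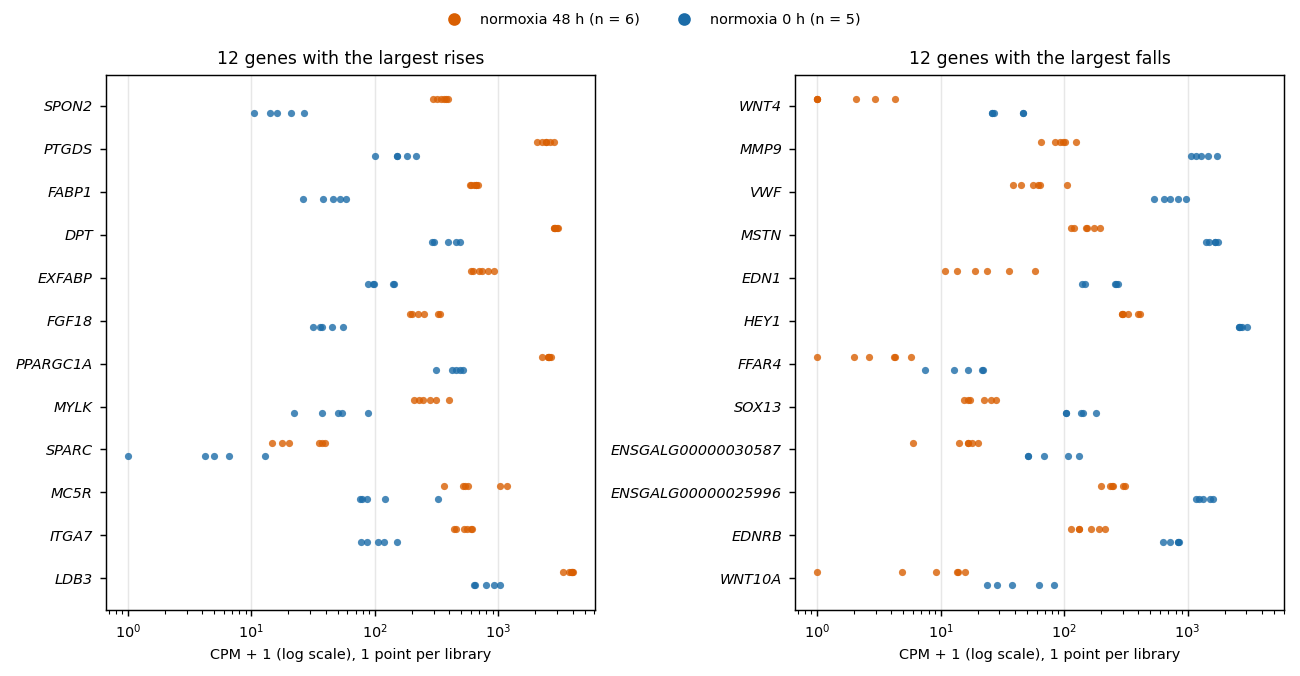
CPM plus 1 on a log axis for the 12 genes with the largest rises (left) and the 12 with the largest falls (right), 1 point per library, with the 6 libraries at 48 h in orange above the 5 at 0 h in blue. In each of these genes the libraries of the 2 times do not overlap, which the rule for choosing them required.

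The contractile genes that changed were all higher at 48 h. Of 16 tested members of the contractile and structural list 8 rose, 0 fell and 8 did not pass, beside 15.5% higher and 25.2% lower over all tested genes. The list had a median change of 0.31, against 0.01 for all tested genes. LDB3, a Z-disc protein of striated muscle (chromosome 6, 3104861 to 3175701, galGal6), had 3316, 3949 and 4022 CPM in the lowest, median and highest library at 48 h, against 1032, 915, 632, 646 and 801 CPM at 0 h. The lowest library at 48 h stood far above the highest at 0 h, and the change was 2.26 (SE 0.14, edgeR adjusted p = 7.29e-20). MYH1D, a fast myosin heavy chain, had 4553, 4842 and 5180 CPM in the lowest, median and highest library at 48 h, against 1238, 1801, 1272, 1072 and 1101 CPM at 0 h. Its change was 1.92 (SE 0.08, edgeR adjusted p = 1.13e-26), and the libraries did not overlap. The neighbouring fast myosins on chromosome 18 differed from it. MYH1B rose (log2 1.08, SE 0.18) and MYH1E rose (log2 0.49, SE 0.12) with overlapping libraries, while MYH1F, which starts 8432 bases beyond the end of MYH1D, was at 123 ± 20.9 CPM at 48 h and 144 ± 28.7 CPM at 0 h (log2 -0.22, not called). The fast myosins are near-identical copies, and with the way reads were divided among the copies not stated, the values of single MYH1 genes are uncertain.

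The other members that rose were MYLK (log2 2.52), the kinase of myosin light chain, CAPN3 (1.38), a muscle protease, ACTC1 (1.18), the cardiac actin that embryonic skeletal muscle also makes, and PVALB (0.69), a calcium buffer of fast fibres. Desmin, the intermediate filament of muscle cells, and skeletal alpha-actin did not pass: DES was at 4227 ± 276 CPM at 48 h and 4193 ± 171 CPM at 0 h, and ACTA1 at 3480 ± 254 and 3173 ± 194 CPM. TNNT2, a troponin, was at the floor of detection, with 10 reads in all 6 libraries at 48 h and 13 in all 5 at 0 h. Of the 8 genes that rose 6 were still called when libraries were scaled by reference genes and 8 with the shared level as a covariate, and all 8 kept their direction without the high libraries. Of the 2 fusion genes tested CAV3, the muscle caveolin, rose (log2 0.39, SE 0.06) and DYSF, the membrane repair protein dysferlin, fell (log2 -1.64, SE 0.48) on 33 reads at 48 h and 109 at 0 h.

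**Figure D2:**
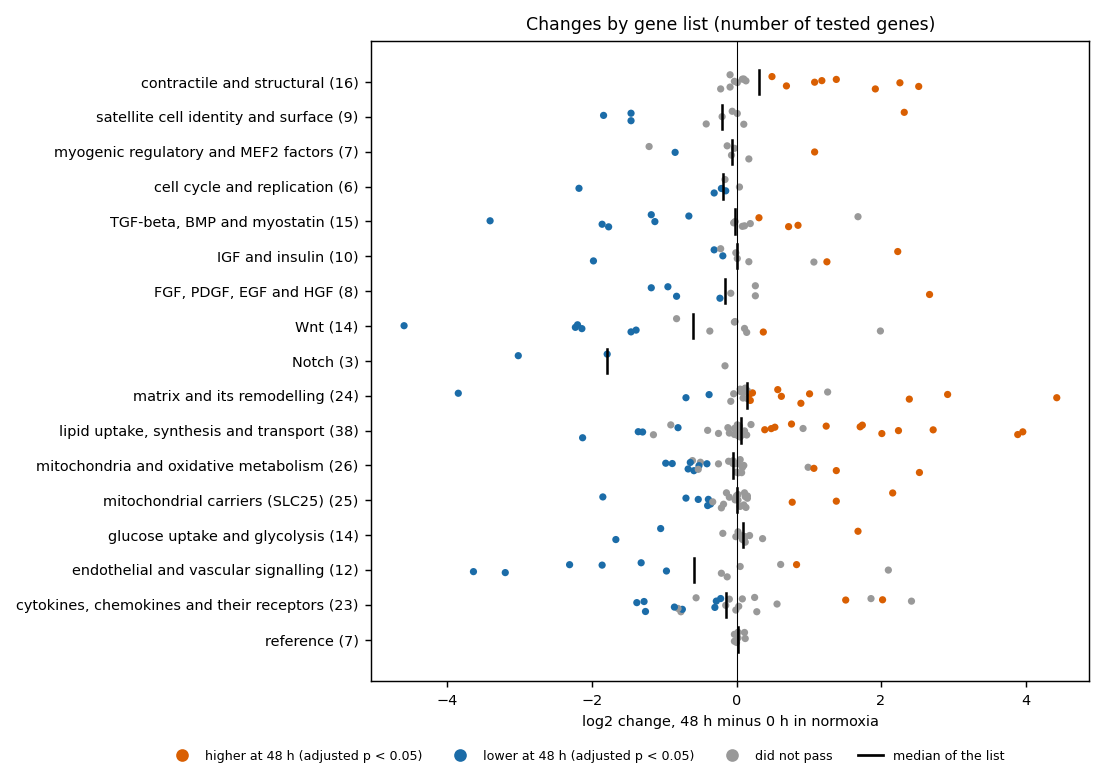
Log2 change (48 h minus 0 h in normoxia) of every tested gene in 17 lists, 1 point per gene, orange where it rose, blue where it fell and grey where it did not pass, with a black bar at the list's median. The contractile list has 8 orange and 0 blue points, the Wnt and vascular lists have medians of -0.60 and -0.59, and the reference genes lie between -0.03 and 0.12.

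Most myogenic regulators themselves did not pass the test. MYOD1 had 3196, 4173 and 4546 CPM in the lowest, median and highest library at 48 h, against 3942, 3651, 4350, 4650 and 4587 CPM at 0 h, a change of -0.07 (SE 0.10) that did not pass. MYOG had 3604, 4772 and 5297 CPM in the lowest, median and highest library at 48 h, against 4572, 4405, 4809, 4751 and 4873 CPM at 0 h, a change of -0.03. The libraries at 48 h enclosed those at 0 h in MYOG and overlapped with them in MYOD1. MYF5, the factor of early commitment, had 2313, 4003 and 5986 CPM in the lowest, median and highest library at 48 h, against 7241, 7341, 7284, 6016 and 8646 CPM at 0 h. It fell by 0.85 on the log2 scale (SE 0.21, edgeR adjusted p = 0.000963), with the highest library at 48 h just under the lowest at 0 h. MYF6, which lies next to MYF5 on chromosome 1 with 3171 bases between them, had a change of -1.21 and did not pass, with 46.1 to 371 CPM at 48 h and 105 to 596 CPM at 0 h. MEF2C, a partner of these factors, rose (log2 1.08, SE 0.29), while MEF2A and MEF2D did not pass. In all, 1 of 7 tested myogenic and MEF2 factors rose and 1 fell, beside 15.5% higher and 25.2% lower over all tested genes. Both were still called with the shared level as a covariate. Without the high libraries the changes of MYF5 (-0.90) and MEF2C (0.95) were close to those with all libraries, and neither passed.

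The genes that mark the undifferentiated cell moved apart from each other. PAX3 had 316, 401 and 525 CPM in the lowest, median and highest library at 48 h, against 1561, 1866, 1181, 1080 and 1495 CPM at 0 h, and the groups did not overlap (log2 -1.84, SE 0.25, edgeR adjusted p = 1.39e-08). PAX7 had 5715, 8778 and 11261 CPM in the lowest, median and highest library at 48 h, against 9121, 8285, 8750, 9023 and 9898 CPM at 0 h. Its libraries at 48 h enclosed all those at 0 h, and its change of -0.06 did not pass. The adhesion molecule NCAM1 fell to 562 ± 32.8 CPM at 48 h, against 1548 ± 119 CPM at 0 h, and the laminin receptor subunit ITGA7 rose to 533 ± 72.7 CPM, against 107 ± 29.7 CPM. CD34 fell on 23 and 68 reads in all. Of 9 tested identity and surface genes 1 rose, 3 fell and 5 did not pass (median -0.20). The shares over all tested genes were 15.5% higher and 25.2% lower.

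The cell cycle genes that changed were lower at 48 h, 3 of the 4 by a small margin. Of 6 tested members 0 rose and 4 fell (median -0.18), beside 15.5% higher and 25.2% lower over all tested genes. E2F1, the factor that switches on genes of DNA synthesis, had 369, 500 and 696 CPM in the lowest, median and highest library at 48 h, against 2221, 2810, 1950, 1646 and 2641 CPM at 0 h, with no overlap (log2 -2.18, SE 0.30, edgeR adjusted p = 2.27e-08). The others that fell were RRM2, a subunit of ribonucleotide reductase (log2 -0.31), the replication clamp PCNA (-0.21) and cyclin CCND1 (-0.15). PCNA and CCND1 were not called with reference gene scaling, 3 of the 4 were called with the shared level as a covariate, and all 4 kept their direction without the high libraries, with a median absolute change of 0.14, against 0.26 with all. CDKN1A, an inhibitor of cyclin-dependent kinases, was at 2374 ± 179 CPM at 48 h and 2301 ± 267 CPM at 0 h and did not pass.

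Of 15 tested genes of the TGF-beta, BMP and myostatin list 3 rose and 6 fell (median -0.02). The shares over all tested genes were 15.5% higher and 25.2% lower. MSTN, which encodes myostatin (chromosome 7, 252348 to 257840, listed as GDF8), had 114, 152 and 195 CPM in the lowest, median and highest library at 48 h, against 1671, 1776, 1495, 1412 and 1665 CPM at 0 h. The highest library at 48 h was far below the lowest at 0 h (log2 -3.41, SE 0.31, edgeR adjusted p = 2.06e-13). Follistatin (FST), a secreted antagonist of myostatin and activins, also fell, with 2541, 2768 and 3161 CPM in the lowest, median and highest library at 48 h, against 6605, 6886, 6017, 5916 and 6291 CPM at 0 h (log2 -1.18, SE 0.08). TLL1, whose mammalian relatives release myostatin from its propeptide, fell as well (log2 -0.66, SE 0.20). Thus the inhibitor and its antagonist were both lower at 48 h. Among other ligands TGFB1 fell (log2 -1.77, SE 0.35) and BMP7 fell (-1.13, SE 0.20), BMP2 rose (0.72, SE 0.26), and TGFB2 (-0.04) and BMP4 (-0.02) did not pass. Of the co-receptors ENG, endoglin, fell (-1.86) and TGFBR3, betaglycan, rose (0.31), and the BMP antagonist GREM1 rose (0.85). Of these 9 calls 6 held with reference gene scaling and 8 with the shared level as a covariate, and all 9 directions held without the high libraries.

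The insulin-like growth factors moved in opposite directions. IGF2 (chromosome 5, 13971786 to 13980128) had 3357, 3657 and 3799 CPM in the lowest, median and highest library at 48 h, against 789, 1044, 650, 365 and 1004 CPM at 0 h (log2 2.23, SE 0.28, edgeR adjusted p = 4.21e-09). IGF1 had 166, 217 and 423 CPM in the lowest, median and highest library at 48 h, against 1153, 1505, 841, 668 and 1133 CPM at 0 h (log2 -1.98, SE 0.28, edgeR adjusted p = 5.09e-08). Neither gene's libraries overlapped between the times. Their shared receptor IGF1R fell by 0.31 on the log2 scale (SE 0.10), the binding protein IGFBP7 rose (log2 1.25, SE 0.18) and IGFBP2 did not pass. Of 10 tested genes of this list 2 rose, 3 fell and 5 did not pass, beside 15.5% higher and 25.2% lower over all tested genes.

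Of the 4 fibroblast growth factor receptors tested 3 fell, beside 25.2% of all tested genes. FGFR2 was at 1826 ± 317 CPM at 48 h and 3241 ± 302 CPM at 0 h (log2 -0.83, SE 0.14). FGFR3 was at 750 ± 144 CPM at 48 h and 1700 ± 374 CPM at 0 h (log2 -1.18, SE 0.25), and FGFR4, which is typical of myoblasts, at 2611 ± 210 and 5044 ± 199 CPM (log2 -0.95, SE 0.12). None of the 3 overlapped between times, and FGFRL1, a receptor that lacks the kinase, did not pass (-0.08). The ligand FGF18 rose, with 191, 234 and 334 CPM in the lowest, median and highest library at 48 h, against 34.9, 54.8, 36.6, 43.8 and 30.5 CPM at 0 h (log2 2.67, SE 0.32). The 0 h medium held basic fibroblast growth factor and the differentiation medium, as the labels list it, did not. Other parts of the medium and the time changed with it, and whether this difference bears on these genes was not tested.

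Notch and Wnt genes that fell outnumbered those that rose, as falls did over all 453 tested genes (25.2% lower and 15.5% higher). HEY1, a repressor that Notch switches on, had 293, 314 and 408 CPM in the lowest, median and highest library at 48 h, against 2743, 3019, 2633, 2593 and 2661 CPM at 0 h (log2 -3.02, SE 0.22, edgeR adjusted p = 1.52e-16). The receptor NOTCH1 fell to 213 ± 54.2 CPM at 48 h, against 739 ± 257 CPM at 0 h, while NOTCH2 did not pass (log2 -0.16). Of 14 tested Wnt genes 1 rose and 6 fell, and the median over the 14 was -0.60. WNT4 had 5 reads in all at 48 h, with 3 of 6 libraries at 0, against 143 reads at 0 h, which gave a change of -4.60 (SE 0.64). WNT10A (log2 -2.23) had 45 reads at 48 h and 239 at 0 h. WNT5B, with far more reads, had 264 to 394 CPM at 48 h and 1151 to 2027 CPM at 0 h (log2 -2.20, SE 0.21). The secreted Wnt inhibitors SFRP1 (-2.14) and SFRP5 (-1.39) fell along with these ligands, as did the glypican GPC3 (-1.46). WNT5A, the relative of WNT5B, rose (0.37, SE 0.11), and beta-catenin, CTNNB1, did not pass (0.14). All 7 calls held with reference gene scaling and with the shared level as a covariate, and all 7 directions without the high libraries.

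The matrix list held the gene with the largest rise and one of the largest falls. SPON2, a secreted F-spondin relative (chromosome 4, 84891894 to 84898886), had 297, 352 and 394 CPM in the lowest, median and highest library at 48 h, against 9.43, 25.8, 15.1, 19.9 and 13.1 CPM at 0 h (log2 4.43, SE 0.26, edgeR adjusted p = 3.9e-20). DPT, dermatopontin, had 2803, 2868 and 3068 CPM in the lowest, median and highest library at 48 h, against 457, 490, 302, 291 and 391 CPM at 0 h (log2 2.92, SE 0.18). MMP9, a gelatinase that cuts basement membrane, had 64.2, 94.8 and 125 CPM in the lowest, median and highest library at 48 h, against 1163, 1724, 1275, 1075 and 1455 CPM at 0 h (log2 -3.85, SE 0.30). The libraries of the 2 times lay far apart in all 3 genes. The other gelatinase, MMP2, rose by little (0.19, SE 0.08) with overlapping libraries. Of 24 tested matrix genes 10 rose, 3 fell and 11 did not pass (median 0.15). The shares over all tested genes were 15.5% higher and 25.2% lower. Besides SPON2 and DPT the rises were SPARC, COCH, LOXL1, MMP16, SPON1, COL3A1, COL6A1 and MMP2. SPARC, a collagen-binding protein, rested on 108 reads at 48 h and 21 at 0 h. The collagens COL3A1 (0.22) and COL6A1 (0.18) rose by small amounts, and COL1A1 and fibronectin FN1 did not pass. THBS1, thrombospondin, fell (-0.70, SE 0.06). Of the 13 calls 8 held with reference gene scaling and 13 with the shared level as a covariate, and all 13 directions held without the high libraries.

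Several genes of lipid binding and transport were among the largest rises. Among 38 tested lipid genes there were 12 rises and 4 falls, and 22 genes did not pass (median 0.05). The shares over all tested genes were 15.5% higher and 25.2% lower. FABP1, the liver-type fatty acid-binding protein (chromosome 4, 85982308 to 85986038), had 594, 647 and 686 CPM in the lowest, median and highest library at 48 h, against 45.2, 58.0, 50.9, 25.2 and 37.4 CPM at 0 h (log2 3.89, SE 0.22, edgeR adjusted p = 1.97e-20). FABP2, the intestinal type, was at 1732 ± 159 CPM at 48 h and 428 ± 60.5 CPM at 0 h (log2 2.01, SE 0.14). FABP4, the adipocyte type, rose by 0.48, and FABP3, the muscle and heart type, did not pass (4180 ± 703 and 4176 ± 210 CPM). PTGDS, which makes prostaglandin D2 and belongs to the lipocalins, had 2053, 2428 and 2815 CPM in the lowest, median and highest library at 48 h, against 152, 213, 150, 99.5 and 180 CPM at 0 h (log2 3.96, SE 0.20, edgeR adjusted p = 4.95e-23). EXFABP, another secreted lipocalin of birds, lies 4125 bases from it on chromosome 17 on the same strand and had 604, 718 and 929 CPM in the lowest, median and highest library at 48 h, against 140, 142, 96.3, 87.6 and 98.3 CPM at 0 h (log2 2.72, SE 0.18). No library at 48 h came near the 0 h range in any of these lipocalin and FABP1 values.

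The apolipoprotein APOA1 (log2 2.24), the fatty acid transporter CD36 (1.71) and the nuclear receptor PPARG (0.76, SE 0.08), a regulator of lipid storage, rose as well. The phosphatase LPIN1, outside that list, rose too (1.29). The falls were in the fatty acid elongases ELOVL3 (-2.13), ELOVL1 (-1.36) and ELOVL7 (-1.30) and in ACLY (-0.81), which makes cytosolic acetyl-CoA, while ACACA, the next enzyme of fatty acid synthesis, rose (0.53) and FASN did not pass (0.04). Of the 16 calls 13 held with reference gene scaling and 15 with the shared level as a covariate, and all 16 directions held without the high libraries. THRSP, among the 16, is a seed of the shared level, so the covariate fit is no independent check of it. Of 8 tested genes of cholesterol synthesis 0 rose and 3 fell, beside 15.5% higher and 25.2% lower over all tested genes. The falls included DHCR7 (-0.77) and HSD17B7 (-0.29).

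Genes of mitochondria and energy metabolism moved both ways. PPARGC1A, the coactivator PGC-1alpha that drives mitochondrial biogenesis, had 2243, 2540 and 2678 CPM in the lowest, median and highest library at 48 h, against 456, 490, 419, 311 and 513 CPM at 0 h, without overlap (log2 2.53, SE 0.17, edgeR adjusted p = 4.16e-18). NRF1, a factor it works with, fell (-0.59, SE 0.17), and TFAM, the mitochondrial transcription factor downstream of both, did not pass (0.05). UCP3, the uncoupling protein of muscle, rose (1.38), as did the deacetylase SIRT1 (1.07), while SIRT2 (-1.17) and the mitochondrial SIRT3 (-0.52) fell. CPT1A, which carries fatty acids into mitochondria, fell to 4765 ± 151 CPM at 48 h, against 7576 ± 379 CPM at 0 h (-0.67, SE 0.06). Malate dehydrogenase MDH2 (-0.98) and the mitofusins MFN1 (-0.64) and MFN2 (-0.41) fell. Of 26 tested mitochondrial genes 3 rose, 7 fell and 16 did not pass (median -0.05). Of 25 tested mitochondrial carriers 3 rose and 6 fell, the lowest being the aspartate-glutamate carrier SLC25A13 (-1.85, SE 0.22). The counts of both lists are near the shares over all tested genes (15.5% higher and 25.2% lower) and say nothing particular about these genes. Of 14 tested genes of glucose metabolism 1 rose and 2 fell, beside 15.5% higher and 25.2% lower over all tested genes. HK2, which commits glucose to the cell, fell to 307 ± 46.8 CPM at 48 h, against 970 ± 277 CPM at 0 h (-1.67, SE 0.27). PCK1 fell (-1.05), FBP2 rose with overlapping libraries, and 11 of the 14 did not pass. HIF1A, VEGFA and BNIP3, the 3 tested hypoxia genes, did not pass either. With the shared level as a covariate 9 of the 10 mitochondrial calls and 3 of the 3 glucose metabolism calls held. All 10 and all 3 directions held without the high libraries. The median absolute change of the 3 called glucose metabolism genes was 0.87 with the covariate, against 1.67 without it. FBP2, among these 3 genes, is a seed of the shared level, so the covariate fit is no independent check of it.

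Among vascular and cytokine genes falls outnumbered rises, as they did over all 453 tested genes (25.2% lower and 15.5% higher). Of 12 tested vascular genes 1 rose, 6 fell and 5 did not pass (median -0.59). VWF, von Willebrand factor, had 37.9, 57.4 and 105 CPM in the lowest, median and highest library at 48 h, against 724, 967, 648, 534 and 841 CPM at 0 h (log2 -3.64, SE 0.32, edgeR adjusted p = 5.21e-14). Both its transcripts fell when kept apart (-3.58 and -4.18). The peptide EDN1, endothelin 1, had 9.87, 20.3 and 57.6 CPM in the lowest, median and highest library at 48 h, against 274, 264, 146, 138 and 258 CPM at 0 h (log2 -3.20, SE 0.43), and its receptor EDNRB had 113, 148 and 214 CPM in the lowest, median and highest library at 48 h, against 841, 841, 715, 630 and 849 CPM at 0 h (-2.31, SE 0.25). Ligand and receptor were thus both lower, with no overlap. EDN2 fell too (-0.97). Of 23 tested cytokine and cytokine-receptor genes 2 rose and 8 fell, the falls including NFKB2 (-1.38), CD40 (-1.28), TLR2A (-1.26), JAK2 (-0.86) and CSF1 (-0.75). The rises were IL15 (2.02, SE 0.26), a cytokine that muscle cells release, and IL18 (1.51, SE 0.15). With the shared level as a covariate 7 of the 7 vascular and 8 of the 10 cytokine calls held. Without the high libraries 6 of the 7 vascular and 9 of the 10 cytokine directions held.

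IL18 is counted as 2 transcripts that did not move together. How reads were divided between the transcripts of a gene is not stated, so the values of single transcripts are uncertain. In a fit of all 469 tested transcripts, added after the data were seen, IL18_2 rose (log2 1.69, SE 0.15, edgeR adjusted p = 9.61e-14) on 10043 reads at 48 h and 3397 at 0 h, and IL18_1 fell (-0.65, SE 0.22, edgeR adjusted p = 0.0131) on 290 and 492 reads. In 16 genes with 2 tested transcripts both were called in 4, and the signs were opposite in 5. The other 3 genes with both called moved together: MYLK (2.62 and 2.06), VWF and ENSGALG00000025996 (-2.39 and -2.43).

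Among further receptors and regulators the steroid receptors PGR (log2 -2.10, SE 0.26) and ESR1 (-0.63) and the retinoid receptor RXRG (-1.54) fell. The neuropeptide NPY fell to 890 ± 125 CPM at 48 h, against 2627 ± 178 CPM at 0 h, with no overlap. SOX13, a transcription factor, fell to 91 reads, against 605 at 0 h, and the fatty acid receptor FFAR4 to 10 reads, against 73. MC5R, a melanocortin receptor and one of the 20 genes that varied together, had 360, 549 and 1187 CPM in the lowest, median and highest library at 48 h, against 325, 119, 78.0, 74.3 and 85.3 CPM at 0 h. The 0 h library with 325 CPM was replicate 1, the one above the gap, and it lay just below the lowest at 48 h. CNN1, a calponin of smooth muscle and of other contractile cells, rose (2.16, SE 0.15), while the smooth muscle genes TAGLN and ACTA2 did not pass (both -0.09). The antioxidant enzymes TXNRD1 (-0.95) and CAT (-0.23) and the metallothionein MT3 (-0.66) fell, and SOD1 and SOD2 did not pass. The death receptor FAS rose (1.02, SE 0.10), and CASP9 fell (-1.02). All 7 tested reference genes, GAPDH, ACTB and TBP among them, lay between -0.03 and 0.12 and were not called.

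The label of satellite cells was checked against markers. A sum over markers weighs each gene by how well its primers amplify. The sums below therefore serve to set the 2 times side by side and do not measure the share of a cell type. Of 8 satellite cell and myoblast markers in the panel all were detected, with a summed level of 20175 to 30772 CPM at 48 h and 31300 to 35150 CPM at 0 h. Of these 8 markers 1 rose and 3 fell. The 7 markers of differentiated muscle summed to 9868 to 10548 CPM at 48 h and 2553 to 4399 CPM at 0 h. Of these 7 markers 5 rose and 0 fell, beside 15.5% higher and 25.2% lower over all tested genes. Most of the sum at 48 h came from MYH1D (4553 to 5180 CPM) and LDB3 (3316 to 4022 CPM). The libraries of MYH1E, CAPN3 and PVALB, which also rose, overlapped between the times. Markers of other cells were present too. The 6 fibroblast markers summed to 15525 to 16975 CPM at 48 h and 14022 to 14359 CPM at 0 h: DPT and COL3A1 rose, PDGFRA and TCF21 fell, and COL1A2 had 9 and 3 reads in all. The 5 adipocyte markers summed to 15848 to 20471 CPM at 48 h and 14010 to 16193 CPM at 0 h, with PPARG and FABP4 higher. The 4 endothelial markers summed to 95.4 to 245 CPM at 48 h and 687 to 1469 CPM at 0 h. Of them VWF, CDH5 and ENG fell and PECAM1 had 12 reads at 48 h and 9 at 0 h. PTPRC, which marks blood cells, had 5 and 45 reads, 22 and 21 of the 45 in 2 of the 5 libraries at 0 h. Of the 9 immune and blood markers listed 2 were in the panel, and the second, TNFRSF1B, had 85 reads at 48 h and 158 at 0 h. Of 5 neural markers 1 was in the panel: NPY, with 764 to 1104 CPM at 48 h and 2397 to 2893 CPM at 0 h. No marker in the panel was at 0 in all 11 libraries. Listed markers that the panel lacks could not be looked for. The part of other cell types in the changes of matrix, lipid and vascular genes was not tested.

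The levels at 12 h show which changes were called before and after that time. A change not called in a step may still have taken place in it. Comparing 12 h with 0 h, 82 of 453 genes were called (18.1%), 49 higher (10.8%) and 33 lower (7.28%); comparing 48 h with 12 h, 176 were (38.9%), 72 higher (15.9%) and 104 lower (23%). The comparison of 48 h with 0 h shares its libraries with both of these. Of the 70 genes that rose over 48 h, 35 had risen by 12 h and 36 rose after 12 h, 11 of them in both steps, and 10 were called in neither step. Of the 114 that fell, 25 had fallen by 12 h and 80 fell after 12 h, 14 of them in both steps, and 23 were called in neither step. Scaling by reference genes changed the split of these steps, to 46 higher and 13 lower by 12 h and to 28 higher and 106 lower after it, and the median of all genes in the later step was then -0.11, against 0.03 in the fit reported here.

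Some genes had moved by 12 h and were not called after it. MYLK stood at 380 ± 71.6 CPM at 12 h, against 49.5 ± 24.4 CPM at 0 h, and did not pass from 12 h on. CNN1, ITGA7, IL15 and FABP2 were likewise called by 12 h and not after it. MYH1D rose in both steps and was at 4085 ± 134 CPM at 12 h and 4845 ± 237 CPM at 48 h, whereas MYH1B fell by 12 h (93.8 CPM, against 154 CPM at 0 h) and rose after that. FGFR2, FGFR3, ELOVL7 and WNT4 fell by 12 h and were not called after it. With 5 reads of WNT4 in all at 48 h, a later fall of that gene could hardly be seen. PTGDS, FABP1, DPT, IGF2, LDB3, PPARGC1A, APOA1 and CD36 rose in both steps, and MSTN, HEY1, MMP9, VWF, EDN1, SOX13, EDNRB, NCAM1 and FST fell in both. SPON2 was at 19.5 CPM at 12 h, 104 at 24 h, 288 at 36 h and 347 at 48 h, and like EXFABP, FGF18, PPARG and UCP3 it rose after 12 h and was not called before it. PAX3, E2F1, NOTCH1, TGFB1, IGF1, WNT5B, SFRP1 and HK2 fell after 12 h and were not called before it. PAX3 was at 1517 ± 314 CPM at 12 h and 375 ± 115 CPM at 36 h. Of the libraries at 12 h 4 of 6 lay above the gap of the 20 genes that varied together, against 1 of 6 at 24 h and at 36 h.

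**Figure D3:**
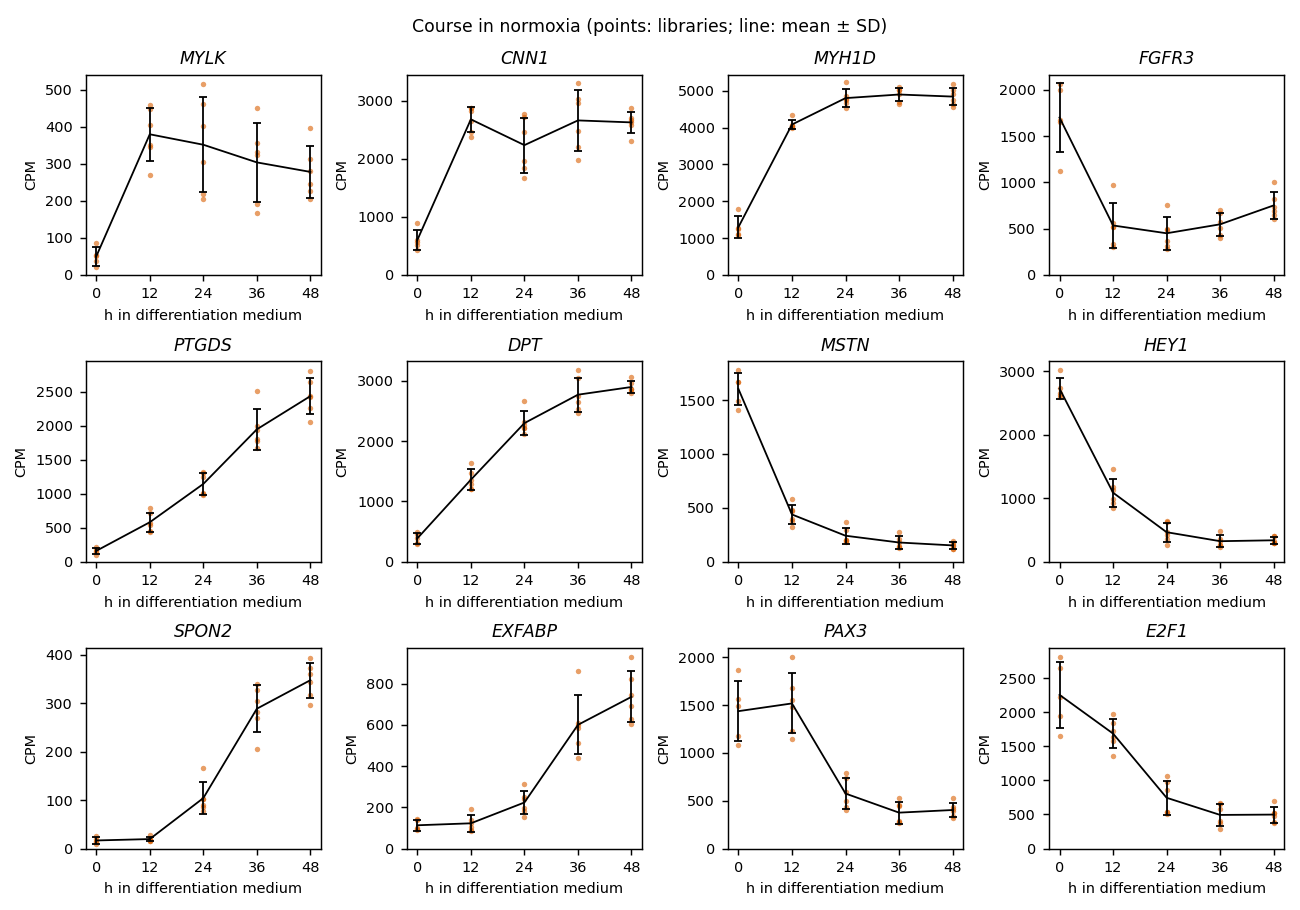
CPM against hours in differentiation medium at 20% O2 for 12 genes, 1 point per library, with the line through the group means and bars of 1 SD. MYLK, CNN1, MYH1D and FGFR3 (top row) had moved most by 12 h; SPON2, EXFABP, PAX3 and E2F1 (bottom row) moved after it; the middle row changed in both steps.

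The level reached at 48 h in normoxia differed from that at 48 h in hypoxia in 101 of 453 genes (22.3%), 42 higher (9.27%) and 59 lower (13%) in normoxia. Of the 70 genes that rose over 48 h in normoxia 15 stood higher in normoxia than in hypoxia at 48 h, 10 stood lower and 45 did not differ by the test. Of the 114 that fell 8 stood higher, 31 lower and 75 did not differ by the test. Both comparisons use the same 6 libraries of normoxia at 48 h, so these counts are not independent of the direction over 48 h, and no link between them is read from the counts. Of the libraries in hypoxia at 48 h 2 of 6 lay above the gap of the 20 co-varying genes, against 5 of 6 in normoxia, and 22 of the 101 were called with the high libraries left out, which leaves 1 library in normoxia.

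The leading genes fell into several patterns. SPON2 was at 347 ± 36.2 CPM in normoxia and 91.0 ± 16.2 CPM in hypoxia at 48 h (log2 1.93, SE 0.21), FABP1 at 639 ± 34.6 and 240 ± 61.6 CPM (1.41) and DPT at 2900 ± 98.7 and 1433 ± 320 CPM (1.03). IGF2 followed them, with 3601 ± 187 CPM in normoxia and 1794 ± 415 CPM in hypoxia (1.01). EXFABP went the other way, with 736 ± 124 CPM in normoxia and 3219 ± 170 CPM in hypoxia (-2.13), although its chromosomal neighbour PTGDS did not differ by the test (2439 ± 270 and 1960 ± 248 CPM). FST was at 2806 ± 263 CPM in normoxia and 6294 ± 640 CPM in hypoxia, beside 6343 ± 405 CPM at 0 h. MSTN, in contrast, was at 151 ± 31.3 CPM in normoxia and 27.0 ± 11.3 CPM in hypoxia (2.53), and EDNRB at 157 ± 39.1 and 59.0 ± 13.1 CPM (1.42). MMP9 (-1.66), VWF (-1.11), WNT10A (-2.50) and PAX3 (-0.92) stood lower in normoxia. LDB3, PPARGC1A, ITGA7, MYLK, SOX13, EDN1 and E2F1 did not differ by the test between the oxygen levels.

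**Figure D4:**
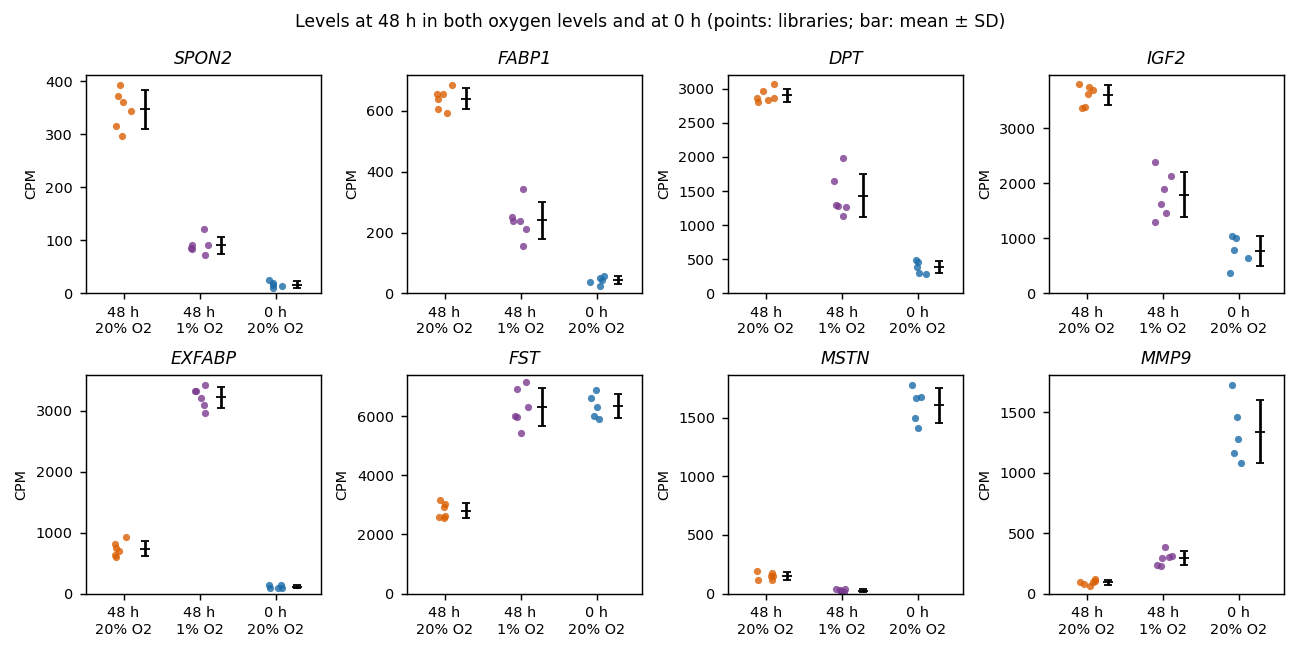
CPM of 8 genes in normoxia at 48 h (orange), hypoxia at 48 h (purple) and normoxia at 0 h (blue), 1 point per library, with the mean and 1 SD beside the points. SPON2, FABP1, DPT and IGF2 are highest in normoxia at 48 h; EXFABP is highest in hypoxia at 48 h, FST averages 6294 CPM in hypoxia at 48 h and 6343 CPM at 0 h, and MSTN is lowest in hypoxia at 48 h.

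The size of the changes differed with the level of the gene. When the 453 genes were divided into 4 groups of near-equal number by mean CPM over all 53 libraries, 42.1%, 67.3%, 31.9% and 21.2% of the genes were called, in order of rising level. Of the genes called with a change of 2-fold or more 41 and 49 were in the 2 lower groups and 2 and 2 in the 2 upper ones. The median absolute log2 change was 0.92 and 0.86 in the lower groups and 0.13 and 0.09 in the upper ones, above a mean level of 1941 CPM, where the median SE was 0.09 and 0.07. MYOD1, MYOG, PAX7, DES and the reference genes GAPDH and ACTB are in the upper groups. Their small changes are therefore not read apart from the small changes of most genes at that level. The genes called with a change of 2-fold or more in the upper groups were CNN1, LDB3, MYH1D and FST.

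**Figure D5:**
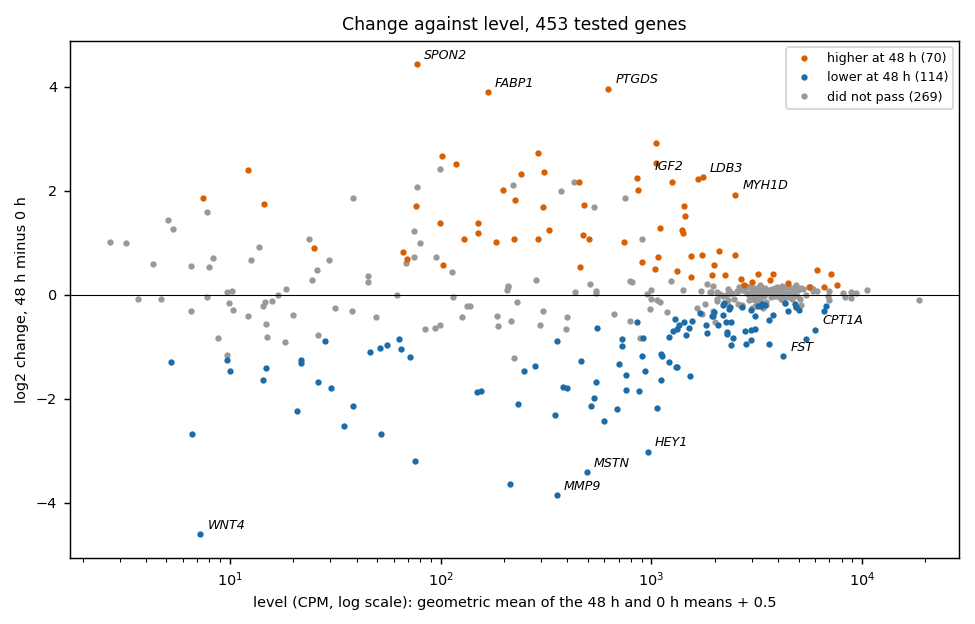
Log2 change (48 h minus 0 h) against level in CPM on a log axis for the 453 tested genes, orange where a gene rose (70), blue where it fell (114) and grey where it did not pass (269). Changes spread widely at low and middle levels and lie mostly close to 0 above 1941 CPM.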

How the data were processed

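The assay was targeted RNA-seq, and the authors deposited raw read counts per transcript in 1 table with 590 transcripts and 106 columns; 0 value columns matched no sample. Total RNA (Direct-zol) was reverse transcribed and amplified with primers that span exon boundaries, per the labels' protocols. Coordinates are copied from the table (galGal6, per the submitters' processing notes), with aligner and counting tool not given in the sources used here. A RefSeq gene table of assembly GRCg7b, which gave only names, matched 523 of 569 genes by symbol and 4 by an older name or alias, 31 have an Ensembl identifier alone, and 11 names were kept as deposited.

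Blanks were read as 0 (0 in the columns compared here), and the 2 transcripts of 21 genes and the 2 technical replicates of each library were summed. Technical replicate 1 of 0 h library 1 had reads for all 590 transcripts, and no other column for more than 516. Counts were tested in R 4.3.3 with edgeR 4.0.16 (TMM, filterByExpr, quasi-likelihood F test, all 53 libraries and 9 groups), with adjustment over 453 genes at 0.05. The SE was taken as log2 change over the root of F. All adjusted p-values are edgeR's. On simulated data with 450 genes the procedure recovered 73.3% of genes changed 1.5-fold, 83.8% changed 2-fold and 97.2% changed 4-fold, and called 4 of 251 unchanged genes.

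The genes named are those with the 12 highest and 12 lowest changes among called genes whose libraries do not overlap between 48 h and 0 h, a set of 14 regulators, of which MSTN counts under both, and the called members and extremes of each list; other genes were named after their values were seen, and a few members of the lists are not reported here. The members and lists were chosen with earlier results of these data known. Alternatives were DESeq2 1.42.0, other scalings, no filter, the 2 groups alone, single technical replicates, a replicate block, the high libraries left out or their score as covariate, and each library left out. Molecular identifiers are not stated, so intervals from counting would be too narrow.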

Additional observations from a re-analysis of the deposited data

Results flagged for a closer look

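A library that stood apart from the others of its group was looked for in 74 groups of values, those of 37 genes at 48 h and at 0 h, and chance marks about 1 in 20 such groups. It was found in 2. MC5R was at 325 CPM in replicate 1 at 0 h, against 74.3 to 119 CPM in the other 4 libraries, and this library is also the one at 0 h above the gap of the 20 genes that varied together. VWF was at 105 CPM in replicate 2 at 48 h, against 37.9 to 62.4 CPM in the other 5. In both genes all 48 h values, with these libraries included, lie on one side of all 0 h values. The rule that chose the 2 genes required this, so it does not show that the flagged libraries are harmless.

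Of the same 37 genes 17 had a level at 48 h that differed between normoxia and hypoxia in edgeR's test, beside 101 of all 453 genes (22.3%). As 24 of the 37 were chosen for extreme changes in the same normoxia libraries at 48 h, the count is not read against that share. Relative to hypoxia, the level in normoxia was higher for MSTN (log2 2.53), MC5R (2.43), SPON2 (1.93), EDNRB (1.42), FABP1 (1.41), FGF18 (1.20), DPT (1.03) and IGF2 (1.01). It was lower for WNT10A (-2.50), WNT4 (-2.17), EXFABP (-2.13), MMP9 (-1.66), ENSGALG00000025996 (-1.23), FST (-1.17), VWF (-1.11), PAX3 (-0.92) and HEY1 (-0.85). The edgeR adjusted p of these ranged from 1.27e-16 (FST) to 0.0223 (WNT4, on 5 reads in normoxia at 48 h). MC5R is one of the 20 genes that varied together. At 48 h 5 of 6 libraries in normoxia and 2 of 6 in hypoxia lay above the gap of those genes. The MC5R difference is therefore not read apart from that shared level.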

How the results depend on the processing

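The count of 184 genes stayed within 1.5 times under every alternative except the fit without the libraries above the gap, which keeps 1 library at 48 h and 4 at 0 h and called 68 genes; 52 were then called at 12 h against 0 h, 22 at 48 h against 12 h and 22 at 48 h between oxygen levels. In that fit CDH5 (0.36), KLF6 (0.03) and NFKBIA (0.00) no longer pointed down. DESeq2 called 187, scaling by totals 183, by reference genes 146, no filter 175, the 2 groups alone 204, single technical replicates 163 and 149, the fit without technical replicate 1 of 0 h library 1 called 182, the score as covariate 185, and transcripts kept apart, added after seeing the data, 183. Leaving out each library in turn gave 165 to 186. In all 144 genes were called in every such fit and 66 in every other alternative that gave a value.

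The replicate block gave 196 calls, 183 of them shared, and 102, 191 and 108 calls in the other 3 comparisons. The deviations of libraries with the same number correlated at 0.06 to 0.66 (median 0.38), against a median of 0 for different numbers, and replicate 1 lay above the gap in 8 of 9 groups. Both hint from the data, not the labels, at variation shared by number; since 1 of the 5 pairs stayed under 0.1 and the labels name no pairing, the fit without the block was kept. Genes with few reads limit precision: WNT4, FFAR4, ABR and TNNT2 each had 16 or fewer reads in all 6 libraries at 48 h. Intervals of reads would cover counting error only.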
